A study of Danio rerio with 24 samples.

Results

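The nuclear genes of the mitochondrial respiratory chain were examined in RNA labelled as ovary of adult zebrafish that had received the herbicide atrazine as embryos. Members were the array targets whose RefSeq transcript belongs to a gene with a symbol starting ndufa, ndufb, ndufc, ndufs, ndufv, sdha, sdhb, sdhc, sdhd, uqcr, cox4, cox5, cox6, cox7, cox8 or atp5, without ndufaf. Of 101 genes with such a symbol, 85 had a target, and cox6b2 had 2, which gave 86 of the 89208 targets on the array. All 86 passed the filter on dim probes. The other 16 genes, among them cox5ab, cox5bb, cox8a, cox8b, ndufa9b, ndufb3 and ndufv3, were not analysed here. The prefix sdha also brought in sdhaf2, sdhaf3 and sdhaf4, which encode assembly factors of complex II and are counted apart from its subunits.

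The respiratory chain sits in the inner membrane of the mitochondrion. Complex I takes electrons from NADH and complex II takes them from succinate, complex III passes them to cytochrome c and complex IV to oxygen, and the protons pumped on the way drive the synthesis of ATP by complex V. Most subunits are encoded in the nucleus, and several have copies or isoforms that differ in the tissues where they are used. The fish oocyte is rich in mitochondria, which it passes on to the embryo.

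The females were wild-type AB fish, 5 to 6 months old by the labels, and 4 treatments were compared. Embryos had been kept without atrazine (0 ppb) or in 0.3, 3 or 30 ppb from 1 to 72 hours post fertilization and were then raised in clean water. Each treatment had 6 one-color arrays, 24 in all, and each array reads the brightness of spots that bind the dye-labelled RNA of 1 sample. By the methods the tissue came from as many adult females as there are arrays per treatment. The labels tie no sample to a female, so that p-values measure only the spread between these samples. Whether a lower signal means fewer cells of a type or less RNA per cell cannot be told apart in such samples.

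Levels are log2 intensities relative to the 75th percentile of their array. The 4 arrays of replicate 1 had a misplaced spot grid and did not correlate with the other arrays, and they were left out. On the 20 arrays of replicates 2 to 6, between 31.3% and 87.1% of probes were well above background. The lowest share belonged to the 3 ppb array of replicate 6, whose grid was also marked as poor, as was that of the 30 ppb array of replicate 2. The 0.3 ppb arrays of replicates 3, 5 and 6 went against their label of ovary. Relative to the median 0 ppb level, genes of the oocyte (14 of 15 measured) stood at -7.96, -8.42 and -8.99 on them as a log2 median, and genes of the brain (14 of 16 measured) at 8.17, 8.27 and 8.51. On the other 17 arrays the oocyte list stayed between -0.24 and 0.30. Genes of the somatic cells of the follicle (9 of 11 measured) fell less, to -2.04, -0.82 and -1.42 in replicates 3, 5 and 6 at 0.3 ppb. Of the measured targets, 13 of 14 for the oocyte and 8 of 9 for the follicle were still well above background on all 3. On these 3 arrays the atrazine dose and whatever else sets them apart cannot be told apart, so their values are given pair by pair with no mean and no test.

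In ovaries of untreated females the chain was bright and steady. At 0 ppb all 86 members were well above background on 5 of 5 arrays, and 76 of them (88.4%) had a mean level above the 75th percentile of their arrays, against 12999 of 72744 targets in all (17.9%). A target counted as well above background on an array where at least 1 of its probes was. On these 5 arrays 66.6% to 86.0% of all probes were, and the share of all targets was not counted. The SD over the 5 arrays had a median of 0.160 for the members, against 0.637 for all targets. Among targets above the 75th percentile, 60 of 76 members (78.9%) and 5848 of 12999 targets in all (45.0%) had an SD under 0.2. The median SD was 0.0880 for the 7 targets of complex III, 0.136 for the 18 of complex V, 0.157 for the 35 of complex I, 0.187 for the 18 of complex IV and 0.217 for the 5 subunits of complex II. The 10 members with a mean at or below the 75th percentile were ndufa1, ndufa3, ndufa12, ndufs8b, sdhda, cox4i2, cox5b2, cox7a1, ndufa4b and atp5pf. An SD over 1 was found for 4 members (4.65%), against 22196 of 72744 targets in all (30.5%). The share among targets above the 75th percentile was not counted. The 4 were cox7a1 (1.504), cox5b2 (1.42), ndufs8b (1.09) and cox6a2 (1.02).

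On the 0.3 ppb arrays of replicates 3, 5 and 6, scaled to the 75th percentile, 33 members stayed within 1.5-fold in all 3 pairs. Each pair was set against the 0 ppb ovary of its replicate, and single copies moved by far more. The paired log2 difference, 0.3 ppb minus 0 ppb, was past a 1.5-fold change in 1 direction in all 3 pairs for 18 members that were higher and 4 that were lower. The 18 are 20.9% of the members, where 35.8% of all targets were higher, and the 4 are 4.65%, where 19.6% of all targets were lower. The 33 that stayed under 1.5-fold either way are 38.4% of the members, against 7.3% of all targets. Set against targets above the 75th percentile at 0 ppb, under this scaling, the contrast lay in the losses and in the share under 1.5-fold. These bright targets were picked by the 0 ppb arrays that are subtracted in the pairs. Of the 76 bright members 3.95% were lower, 14.5% higher and 43.4% under 1.5-fold in all 3 pairs, against 58.9%, 10.9% and 8.11% of all bright targets. The median difference in replicates 3, 5 and 6 was 0.19, 0.27 and 0.53 for the members and 0.77, 0.35 and 0.38 for all targets. These shares depend on scaling. The 75th percentile intensity was 417, 1076 and 1022 on the 3 arrays, against 1501, 2242 and 1856 on their 0 ppb partners. Dividing by it can make a target near background on both arrays, member or not, come out higher. How much of the 35.8% this accounts for was not tested. With only probes above background on all 20 arrays, the median difference of all targets was -0.69, -0.65 and -0.49. That of the members was 0.17, 0.26 and 0.43. The share under 1.5-fold and all shares of bright members and bright targets were counted with the 75th percentile only. When each array was centred on its median target, the median difference of the members was -0.98, -0.49 and -0.25 in those replicates. That of all targets was -0.40, -0.42 and -0.40. Centring each array on its median target gave 9 members higher (10.5%, against 23.2% of all targets) and 24 lower (27.9%, against 33.2%). Quantile normalization gave 28 higher (32.6%, against 27.4% of all targets), which turns the comparison of the higher share round, and 2 lower (2.33%, against 29.0%). After centring, 12 of the 18 higher members and all 4 lower ones kept their direction in all 3 pairs. The 6 that did not were ndufa5, uqcrb, uqcrq, cox4i1, atp5l and atp5mj. Under quantile normalization and normexp background correction all 22 kept it. The width of the distribution does not depend on centring. The 10th and 90th percentile of the members were -0.71 and 2.95 in replicate 3, -0.70 and 1.64 in replicate 5, and -0.44 and 2.02 in replicate 6. For all targets they were -2.47 and 4.09, -2.16 and 3.62, and -2.35 and 3.71 in the same replicates.

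**Figure D1:**
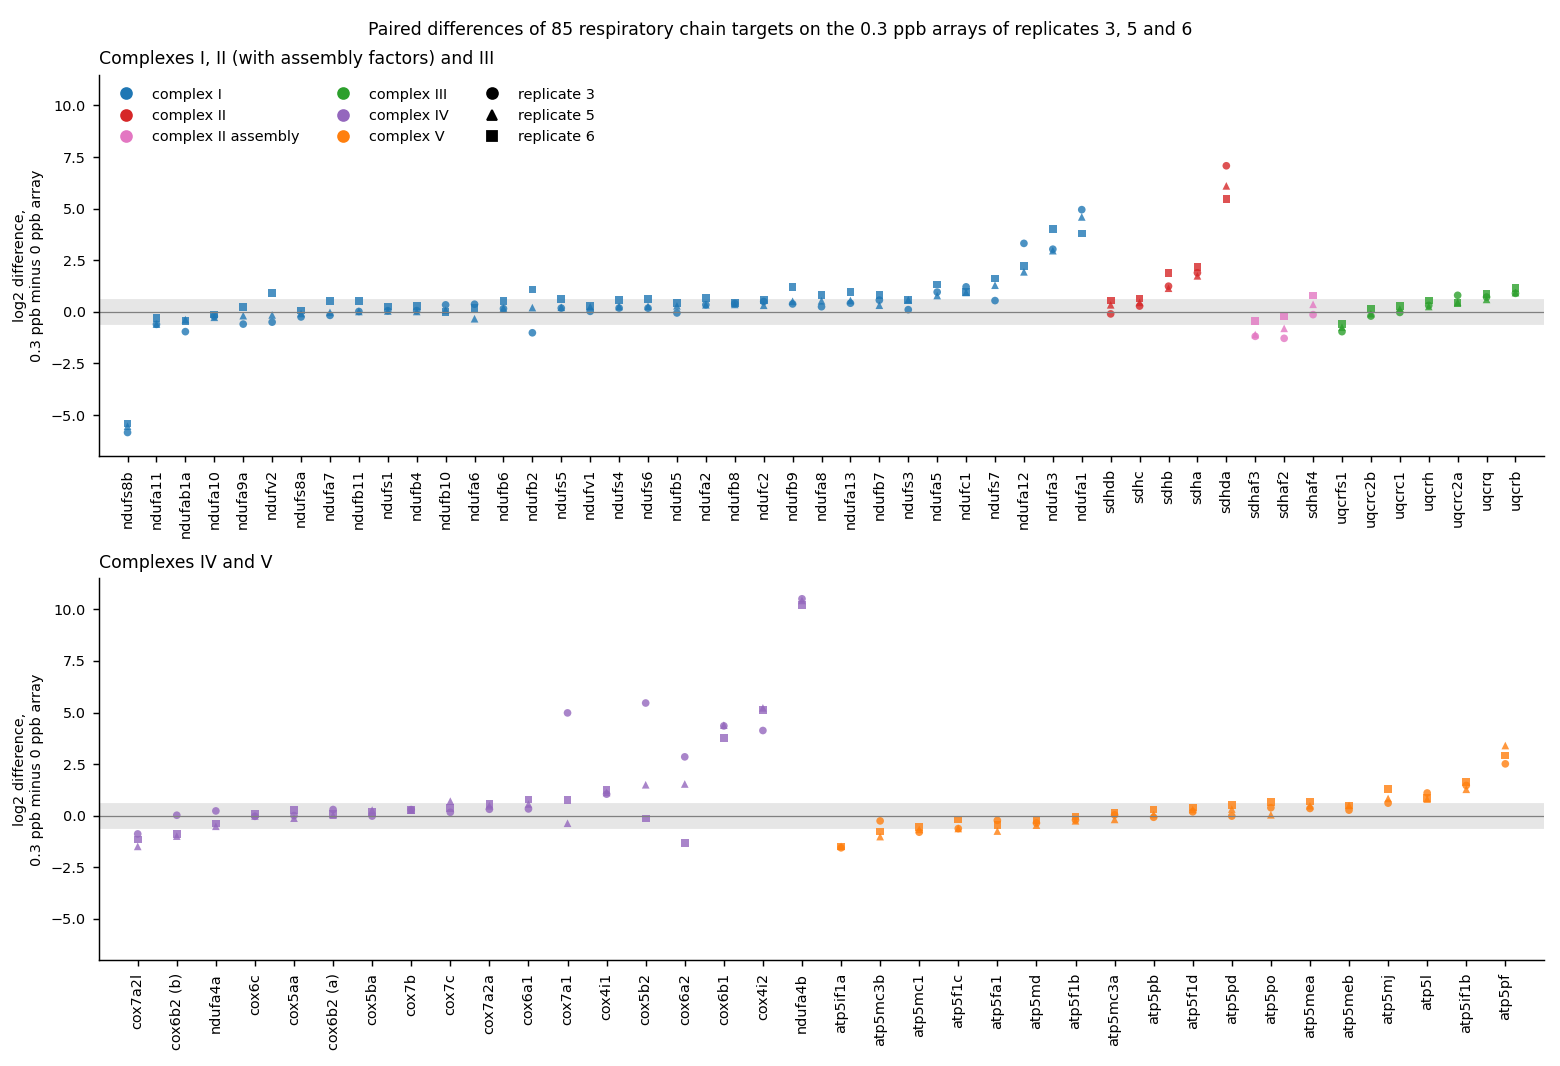
Paired log2 difference, 0.3 ppb minus 0 ppb, of 85 of the 86 respiratory chain targets (x axis, grouped by complex) in replicates 3, 5 and 6, with 1 point per pair and a grey band up to 1.5-fold either way. cox6b2 (a) is NM_200506 and cox6b2 (b) is NM_001282092. Many targets stay inside the band in all 3 pairs, while ndufa4b lies above 10 and ndufs8b below -5.

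Complex I, the entry point for NADH, had 5 of 35 targets higher and 1 lower in all 3 pairs, and 15 within the threshold. Subunits that carry the flavin or iron-sulfur clusters did not all move alike. The flavin-binding subunit ndufv1 differed by 0.03, 0.25 and 0.27 in replicates 3, 5 and 6, and the iron-sulfur subunit ndufs1 by 0.06, 0.04 and 0.25. The iron-sulfur subunit ndufs7 was higher by 0.55, 1.29 and 1.61, and the core subunit ndufv2 differed by -0.50, -0.15 and 0.92. The largest rises in the complex were those of small accessory subunits. ndufa1 (NM_001002153) had levels of 0.26, 0.28 and 0.36 on the 0.3 ppb arrays of replicates 3, 5 and 6, against -4.70, -4.32 and -3.44 at 0 ppb, and -5.09 and -5.14 at 0.3 ppb in replicates 2 and 4. All 3 lay above every other array of replicates 2 to 6. ndufa3 differed by 3.04, 2.97 and 4.01. The 3 others past the threshold were chosen after their values were seen, and they were ndufa12 (3.32, 1.94 and 2.21), ndufc1 (1.21, 0.94 and 0.98) and ndufa5 (0.96, 0.79 and 1.33). After centring on the median target ndufc1 differed by 0.04, 0.18 and 0.19. The acyl carrier protein ndufab1a differed by -0.96, -0.38 and -0.45.

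The exception in the other direction was ndufs8b, one of a pair of zebrafish copies of an iron-sulfur subunit of complex I. Its level was -5.41, -5.67 and -6.47 on the 0.3 ppb arrays of replicates 3, 5 and 6, against 0.44, -0.13 and -1.06 at 0 ppb. In replicates 2 and 4 it was -0.65 and -0.78 at 0.3 ppb and 0.11 and -2.27 at 0 ppb, so that these arrays overlapped. The paired differences were -5.85, -5.54 and -5.40. They understate the change in the bright probes, since 2 of its 3 probes differed by -7.92, -8.08 and -7.23 and by -6.09, -7.33 and -8.32. The third was bright enough to clear background on 2 of the 5 arrays without atrazine and on none of the 3. The other copy, ndufs8a, differed by -0.25, -0.08 and 0.06.

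Complex II, which also belongs to the citric acid cycle, had 3 of its 5 subunits higher in all 3 pairs and none lower. The flavoprotein sdha (NM_200910) had levels of 4.06, 4.15 and 4.32 on the 0.3 ppb arrays of replicates 3, 5 and 6, against 2.17, 2.41 and 2.15 at 0 ppb, and 2.48 and 2.61 at 0.3 ppb in replicates 2 and 4. The iron-sulfur subunit sdhb was higher by 1.24, 1.15 and 1.88. After centring on the median target it differed by 0.08, 0.38 and 1.10, no longer past the threshold in all 3 pairs. The membrane anchor sdhc differed by 0.28, 0.46 and 0.66. The second anchor has the copies sdhda and sdhdb. sdhda (NM_001002489) had 2.58, 1.93 and 2.36 on the 0.3 ppb arrays of replicates 3, 5 and 6, against -4.50, -4.18 and -3.11 at 0 ppb. In replicates 2 and 4 it had -6.07 and -6.11 at 0.3 ppb, against -3.00 and -3.98 at 0 ppb, which are the lowest levels of the 20 arrays. The 0.3 ppb arrays thus lay on both sides of all 0 ppb arrays. sdhdb differed by -0.10, 0.34 and 0.56, but this mean hides a split between its probes. One probe was higher by 1.90, 2.62 and 2.78 and the other 2 differed by -1.13, -0.95 and -0.68 and by -1.07, -0.64 and -0.42. The assembly factors sdhaf2 (-1.28, -0.80 and -0.21) and sdhaf3 (-1.19, -1.10 and -0.43) were below 0 in all 3 pairs.

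Complex III, which hands electrons to cytochrome c, had 2 of 7 targets higher and 1 lower in all 3 pairs, and 3 within the threshold. The core subunit uqcrc1 differed by -0.03, 0.14 and 0.30. The copies of the other core subunit differed by -0.20, -0.09 and 0.13 for uqcrc2b and by 0.80, 0.46 and 0.43 for uqcrc2a. The hinge subunit uqcrh differed by 0.31, 0.26 and 0.56. The small subunits uqcrb (0.90, 0.93 and 1.15) and uqcrq (0.72, 0.60 and 0.86) were past the threshold in all 3 pairs. After centring on the median target they differed by -0.27, 0.17 and 0.37 and by -0.45, -0.16 and 0.08. The Rieske iron-sulfur subunit uqcrfs1 differed by -0.96, -0.74 and -0.59. Of its 6 probes, 5 were lower past the threshold in all 3 pairs, and the other was higher by 1.52, 1.82 and 2.05. uqcrfs1 and sdhdb were the only 2 of 65 members with several probes whose probes passed the threshold in opposite directions.

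Complex IV, cytochrome c oxidase, held the sharpest contrast between the copies named here, that of ndufa4b with ndufa4a. The protein encoded by ndufa4, first assigned to complex I, is a subunit of complex IV in mammals, and zebrafish have ndufa4a and ndufa4b. ndufa4b (NM_213025) had levels of 4.88, 5.24 and 5.25 on the 0.3 ppb arrays of replicates 3, 5 and 6, against -5.63, -5.19 and -4.97 at 0 ppb. In replicates 2 and 4 it had -6.66 and -6.27 at 0.3 ppb, against -5.25 and -5.72 at 0 ppb. The paired differences of 10.51, 10.43 and 10.22 were the largest of any member, and each of its 4 probes was higher by at least 9.52 in each pair. ndufa4a differed by 0.24, -0.51 and -0.37. The regulatory subunit 4 has the isoforms cox4i1 and cox4i2, of which the second is known in mammals from lung and from cells low in oxygen. cox4i2 (NM_200803) had 3.10, 3.24 and 3.35 on the 0.3 ppb arrays of replicates 3, 5 and 6, against -1.04, -1.99 and -1.79 at 0 ppb, and -2.18 and -1.25 at 0.3 ppb in replicates 2 and 4. cox4i1 differed by 1.05, 1.13 and 1.26, and by -0.12, 0.37 and 0.48 when each array was centred on its median target.

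Subunit 6B lies where the oxidase forms a dimer, and in mammals its second isoform is known from testis. cox6b1 (NM_001002695) had 4.72, 4.24 and 4.59 on the 0.3 ppb arrays of replicates 3, 5 and 6, against 0.37, -0.15 and 0.81 at 0 ppb, and -0.05 and -0.40 at 0.3 ppb in replicates 2 and 4. The target NM_200506 of cox6b2 differed by 0.30, 0.03 and 0.10, and its target NM_001282092 by 0.03, -0.99 and -0.88. cox7a2l, which in mammals joins complexes III and IV, differed by -0.88, -1.48 and -1.14, and its relative cox7a2a differed by 0.32, 0.48 and 0.56. cox5aa stayed at 0.01, -0.12 and 0.27 and cox5ba at -0.02, 0.28 and 0.19. cox5b2, named like cox5ba for subunit 5B, and the isoforms cox6a2 and cox7a1 went different ways on the 3 arrays. They differed by 5.46, 1.503 and -0.14, by 2.86, 1.54 and -1.33, and by 4.99, -0.36 and 0.76.

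Complex V, the ATP synthase, had 4 of 18 targets higher and 1 lower in all 3 pairs. The catalytic subunit beta, atp5f1b, differed by -0.20, -0.24 and -0.04, subunit alpha, atp5fa1, by -0.22, -0.74 and -0.44, and subunit gamma, atp5f1c, by -0.62, -0.62 and -0.18. The genes of the proton-carrying subunit c were at -0.80, -0.66 and -0.56 for atp5mc1, at 0.04, -0.18 and 0.16 for atp5mc3a and at -0.25, -1.01 and -0.77 for atp5mc3b. The inhibitor of the reverse reaction has copies that moved in opposite directions. atp5if1a (NM_001089521) had 5.59, 5.50 and 5.48 on the 0.3 ppb arrays of replicates 3, 5 and 6, against 7.15, 6.98 and 6.97 at 0 ppb, and 7.20 and 7.05 at 0.3 ppb in replicates 2 and 4. atp5if1b (NM_001044859) had 4.89, 4.71 and 5.02, against 3.42, 3.43 and 3.40 at 0 ppb, and 3.62 and 3.31 at 0.3 ppb in replicates 2 and 4. For both copies the 3 arrays lay outside the range of the other 17. After centring on the median target atp5if1b differed by 0.30, 0.52 and 0.84. The stalk subunit atp5pf was higher by 2.52, 3.40 and 2.91. The 2 further members past the threshold, named after their values were seen, were atp5l (1.11, 0.81 and 0.86) and atp5mj (0.61, 0.84 and 1.29), both among the 6 whose direction was lost after centring.

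**Figure D2:**
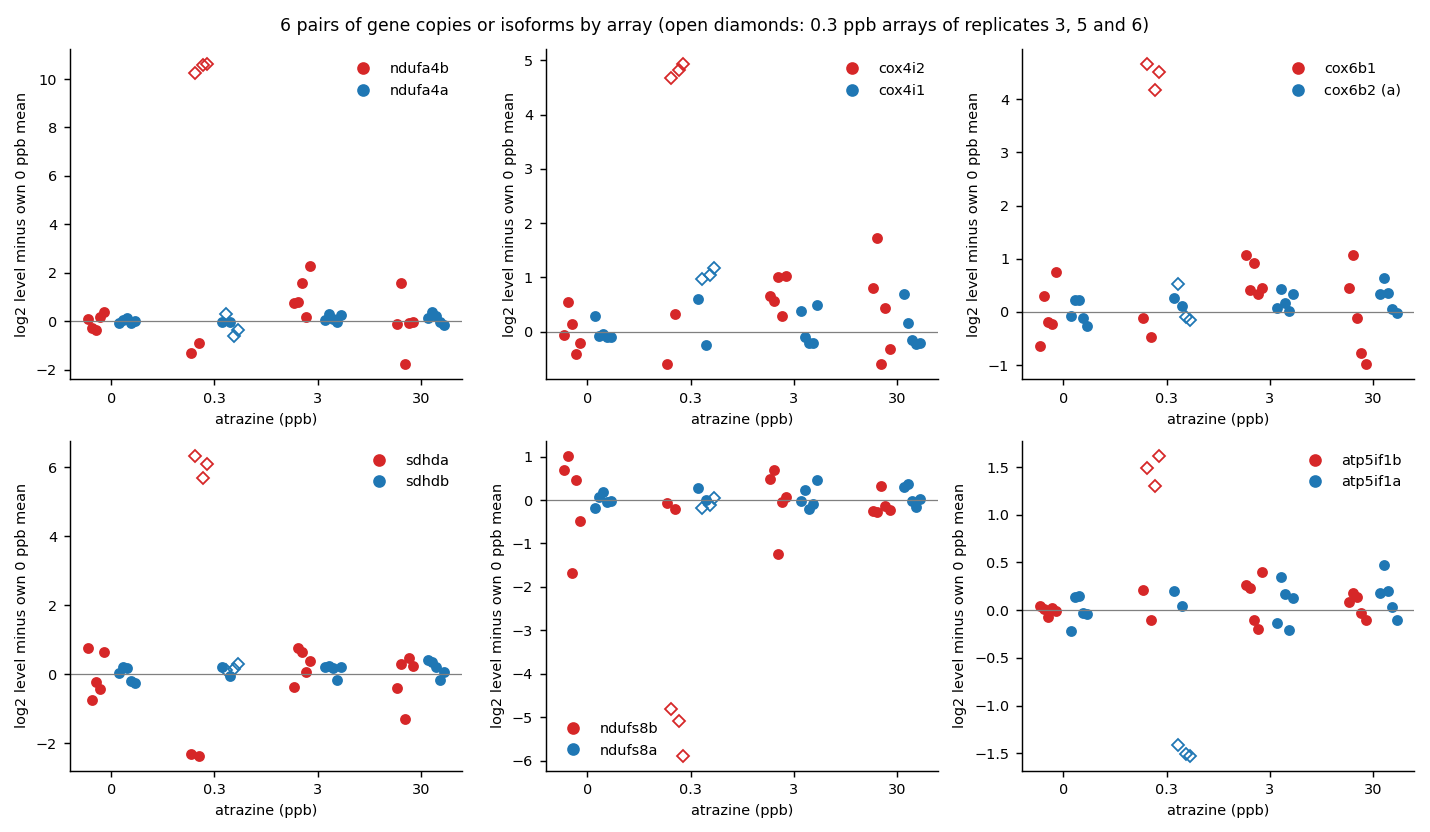
Log2 level minus the gene's own 0 ppb mean, by array and atrazine dose (replicates 2 to 6), for 6 pairs of gene copies or isoforms. Open diamonds are the 0.3 ppb arrays of replicates 3, 5 and 6. In 5 of the panels one copy leaves the range of the other arrays while its partner stays near 0 or moves far less, and in the atp5if1 panel the copies move in opposite directions. These pairs are a selection, and other measured copies such as uqcrc2a and uqcrc2b or cox5ba and cox5b2 are not shown. Nor is the target NM_001282092 of cox6b2. The level of sdhdb is a mean of probes that moved in opposite directions.

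A fit of all 5 pairs of 0.3 and 0 ppb mixes the 3 arrays above with the 2 that resemble ovary. In it limma called 0 of the 86 members and 0 of 72744 targets in all (0.0%) at an adjusted p of 0.05 and a change of 1.5-fold. At an unadjusted p under 0.05 with the same fold threshold, 7 members (8.14%) passed, against 19189 of all targets (26.4%). The 7 were cox4i2 (log2 difference 2.83, SE 1.03), cox6b1 (2.55, SE 0.85), ndufa1 (2.56, SE 0.97), ndufa4b (5.84, SE 2.24), ndufs7 (0.85, SE 0.34), ndufs8b (-3.21, SE 1.23) and sdha (1.26, SE 0.43), each with adjusted p = 0.189 from limma. The methods' ANOVA with Tukey's test, unadjusted and over all 4 treatments, passed 9 of 85 members (10.6%) and 16.3% of all targets at 0.3 ppb, and 0 members and 0.14% and 0.0684% of all targets at 3 and 30 ppb. After adjustment over targets it passed 0 members and 0.00156% of all targets at 0.3 ppb, and 0.0% at 3 and 30 ppb. In the pairs of replicates 2 and 4 the median difference of the members was 0.31 and -0.08.

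At 3 and 30 ppb the question is whether chain genes of adult ovaries differ after the embryonic exposure, and none of them passed the test. limma, fitted to 15 arrays with the replicate number as a block, called 0 of 86 members at both doses, and 0 of 72738 targets in all (0.0%) at 3 ppb and 0 (0.0%) at 30 ppb. With an unadjusted p under 0.05 and the fold threshold, 2 members (2.33%) passed at 3 ppb, against 4030 of all targets (5.54%), and 0 members at 30 ppb, against 2544 of all targets (3.5%). The 95% interval of the log2 difference lay wholly within 1.5-fold either way for 67 of 86 members at 3 ppb and for 64 at 30 ppb, and the median half-width of the intervals was 0.34 at both doses. The share of all targets with such an interval was not counted. The median SE was 0.151 for the members at both doses, against 0.269 and 0.270 for all targets at 3 and 30 ppb. Between 30 and 3 ppb, limma called 0 members and 0 targets in all. With an unadjusted p under 0.05 and the fold threshold, 1 member (1.16%) passed, against 1990 of all targets (2.74%). It was ndufa4b, with a log2 difference of -1.21 (SE 0.51, adjusted p = 0.999 from limma).

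**Figure D3:**
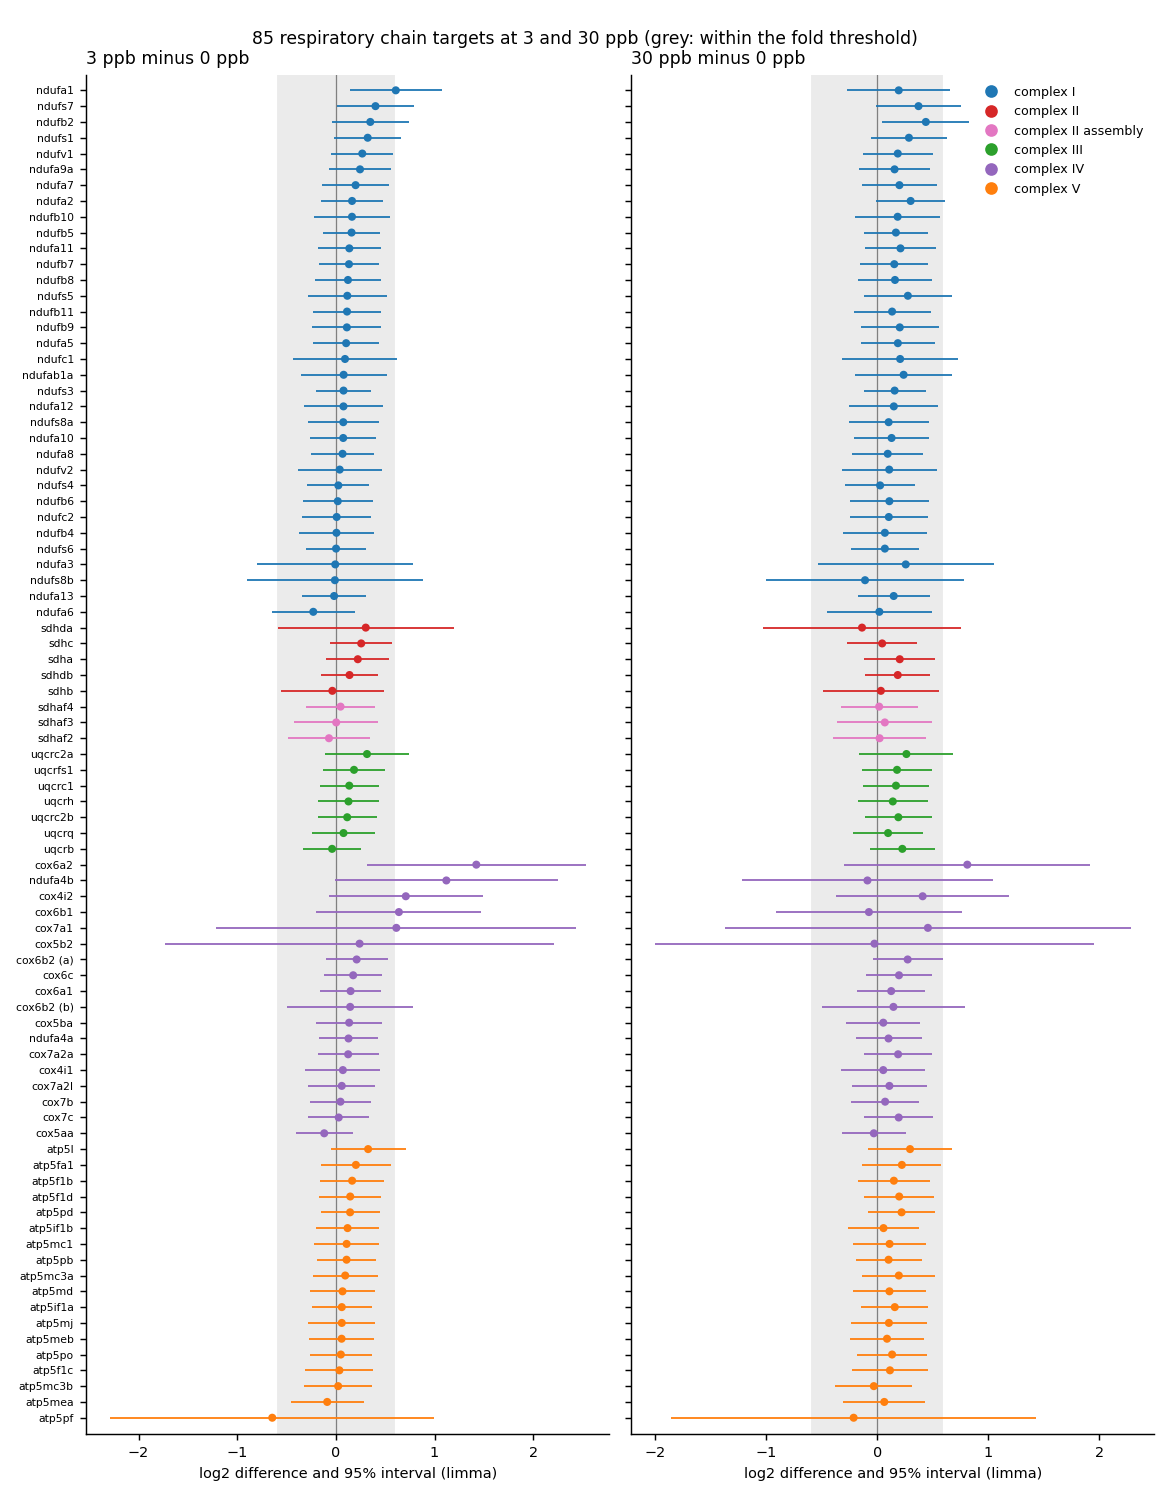
Log2 difference (x axis) of 85 of the 86 respiratory chain targets (y axis, by complex) at 3 ppb (left) and 30 ppb (right) against 0 ppb, with 95% intervals from limma over replicates 2 to 6. The grey band marks 1.5-fold either way. The widest intervals belong to cox5b2, cox7a1 and atp5pf, and most intervals lie inside the band.

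Scaled to the 75th percentile, the small differences that were seen leaned upward, in the members and in the median of all targets. At 3 ppb the log2 difference was above 0 for 76 of 86 members with a median of 0.11, while the median of all targets was 0.07. At 30 ppb it was above 0 for 78 members with a median of 0.15, against 0.09 for all targets. Both doses were set against the same 0 ppb arrays. How many of all targets were above 0 was not counted in these fits. The count of members above 0 depended on scaling and on 1 array. It was 60 at 3 ppb and 64 at 30 ppb after quantile normalization, 81 and 64 after centring on the median target, and 51 at 3 ppb without the array of replicate 6 with the poor grid. In single pairs the median difference of the members at 3 ppb was 0.07, 0.20, -0.04, -0.03 and 0.40 in replicates 2 to 6, against -0.03, 0.11, 0.05, -0.11 and 0.29 for all targets. At 30 ppb it was 0.29, 0.32, 0.15, -0.07 and 0.03, against 0.15, 0.26, 0.06, -0.03 and 0.00. For targets above the 75th percentile at 0 ppb the medians were -0.05, 0.22, -0.13, -0.05 and 0.32 at 3 ppb. They were 0.17, 0.28, 0.05, -0.01 and 0.06 at 30 ppb. The medians of the members and of all targets had the same sign in 3 of 5 pairs at 3 ppb. At 3 ppb 10 members (11.6%) were higher in 5 of 5 pairs and 0 lower, against 5.69% and 3.66% of all targets. At 30 ppb it was 16 of 85 (18.8%) higher and 0 lower, against 6.96% and 2.06%. Among targets above the 75th percentile 729 of 11886 (6.13%) at 3 ppb and 1385 of 12061 at 30 ppb were higher in 5 of 5 pairs. At 30 ppb this share of bright targets lay between that of all targets and that of the members, so that brightness narrows the contrast. Of the bright targets 1.86% at 3 ppb and 1.11% at 30 ppb were lower in 5 of 5 pairs. After centring on the median target 7 members (8.14%, against 5.72% of all targets) at 3 ppb and 13 (15.3%, against 4.5%) at 30 ppb were higher in 5 of 5 pairs. Of the bright targets 3.6% and 6.14% were. With normexp background correction it was 6 members (6.98%) at 3 ppb and 13 (15.3%) at 30 ppb. All targets then gave 21.0% and 7.83%, which turns the comparison with them round at 3 ppb. Bright targets gave 4.87% and 10.2%, below the members at both doses. After quantile normalization 10 members (11.6%) were higher and 1 (1.16%) lower at 3 ppb, against 4.1% and 6.29% of all targets. At 30 ppb 9 (10.6%) were then higher and 0 lower, against 5.08% and 3.35%. Of the bright targets 5.3% were then higher and 5.28% lower at 3 ppb, and 5.99% higher and 2.5% lower at 30 ppb.

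**Figure D4:**
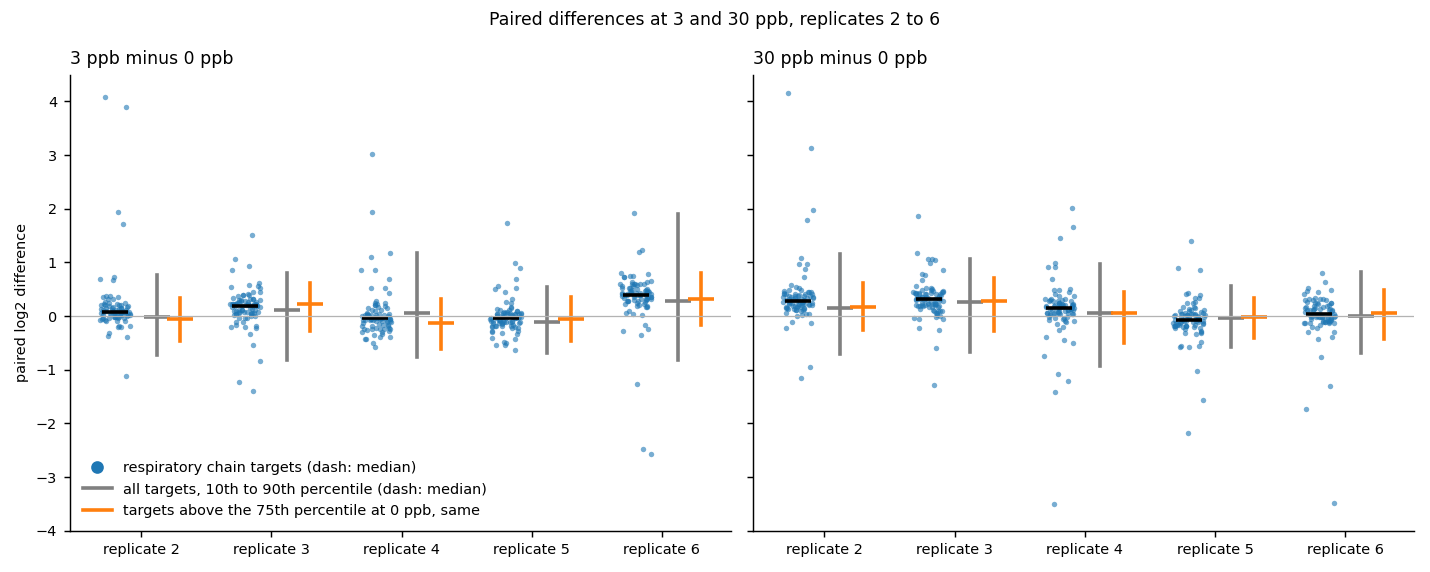
Paired log2 difference at 3 ppb (left) and 30 ppb (right) against 0 ppb in replicates 2 to 6. Blue points are the 86 respiratory chain targets with their median as a black dash, and grey and orange bars run from the 10th to the 90th percentile of all targets and of targets above the 75th percentile at 0 ppb. The median of the members lies highest in replicate 6 at 3 ppb (0.40) and in replicate 3 at 30 ppb (0.32), pairs in which the median of all targets is also highest.

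Among the members with the largest differences at 3 ppb were dim ones and tissue isoforms. cox6b1, which is not dim and is 1 of the isoforms of subunit 6B, differed by 1.71, 0.11, 1.10, 0.55 and -0.29 in replicates 2 to 6. The lowest difference was that of the dim atp5pf, -0.65 with 1 of 5 pairs higher. cox6a2, the isoform of heart and muscle in mammals, had levels of 2.05, 0.96, 2.33, 0.84 and 1.88 at 3 ppb in replicates 2 to 6, against 0.11, 0.99, -0.70, -0.90 and 1.44 at 0 ppb. The groups overlapped, 4 of 5 pairs were higher, and the log2 difference was 1.42 (SE 0.50, adjusted p = 0.607 from limma). ndufa1 had -4.79, -3.83, -3.89, -3.34 and -3.25 at 3 ppb, against -5.12, -4.70, -4.57, -4.32 and -3.44 at 0 ppb. It was higher in 5 of 5 pairs, with a log2 difference of 0.61 (SE 0.21, adjusted p = 0.607 from limma). ndufa4b, higher in 5 of 5 pairs, had -4.58, -4.56, -3.78, -5.17 and -3.06 at 3 ppb, against -5.25, -5.63, -5.72, -5.19 and -4.97 at 0 ppb, and it cleared background on 4 of 5 arrays at 3 ppb, as did ndufa1. Its log2 difference was 1.12 (SE 0.51, adjusted p = 0.656 from limma), and at 30 ppb -0.09 with 1 of 5 pairs higher. cox4i2 and ndufb2 were higher in 5 of 5 pairs by 0.71 and 0.35, and ndufs7 in 4 of 5 by 0.40.

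At 30 ppb the largest differences among members higher in 5 of 5 pairs were small. The iron-sulfur subunit ndufs7 had 1.60, 2.02, 1.77, 1.81 and 1.88 at 30 ppb, against 1.54, 1.60, 1.53, 1.47 and 1.07 at 0 ppb. The lowest 30 ppb array lay level with the highest 0 ppb array at 1.60, and the log2 difference was 0.37 (SE 0.17, adjusted p = 0.944 from limma). The accessory subunit ndufa2 differed by 0.30, ndufs1 by 0.29 and the target NM_200506 of cox6b2 by 0.27. ndufb2 differed by 0.44 with 4 of 5 pairs higher. The largest difference of any member at 30 ppb was that of cox6a2, 0.81, also with 4 of 5 pairs higher. Its pairs differed by 1.97, 0.99, 0.99, 1.40 and -1.30 in replicates 2 to 6. No member was lower in 5 of 5 pairs at either dose. Other core subunits had log2 differences at 3 and 30 ppb of 0.27 and 0.18 for ndufv1, 0.22 and 0.20 for sdha, 0.14 and 0.17 for uqcrc1 and 0.16 and 0.15 for atp5f1b. 1 dim member, atp5pf, fell far on single arrays, to -5.13 on the 3 ppb array of replicate 6, -4.87 on the 30 ppb array and -4.65 on the 0.3 ppb array of replicate 4, against -2.68 to -1.36 at 0 ppb.

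cox5b2 and cox7a1, the members that varied most among ovaries, rose with liver genes, but these relations did not pass the correction for many relations. cox5b2 (NM_001045357) had levels of 1.52, -1.98, -1.05, 0.58 and -1.09 at 3 ppb and 0.75, -0.41, 0.18, -1.88 and -1.99 after 30 ppb, against -2.38, -0.76, -1.27, -0.31 and 1.49 in untreated females. cox7a1 (NM_001172678) had 1.60, -1.60, -0.14, 1.00 and 0.05 at 3 ppb and 1.66, -0.80, 0.34, -1.63 and 0.54 after 30 ppb, against -2.49, -0.21, -1.32, 0.55 and 1.31 in untreated females. The treatments overlapped widely. The median of a list of liver genes (7 of 8 measured, all well above background at 0 ppb) ran from -5.92 to 3.31 at 3 ppb, from -4.55 to 2.49 at 30 ppb and from -3.44 to 2.53 at 0 ppb, relative to the median 0 ppb array. Over the 15 arrays cox5b2 followed it with Pearson's r = 0.79 (permutation p = 0.00062, adjusted p = 0.0878 over 425 relations of 85 members with 5 lists) and Spearman's rho = 0.73 (permutation p = 0.00259, adjusted p = 0.268). For cox7a1 r was 0.73 (permutation p = 0.00257, adjusted p = 0.218) and rho 0.77 (permutation p = 0.00126, adjusted p = 0.178). Neither passed the correction. Without the 2 arrays farthest from the median of the list r was 0.92 for cox5b2 and 0.83 for cox7a1, and within replicates 0.77 and 0.73. On the 0.3 ppb arrays, which are not in these coefficients, the liver list stood at 2.37, 6.10, -5.69, -1.44 and -4.80 in replicates 2 to 6. There cox5b2 had 0.45, 4.70, -2.09, 1.19 and 1.35, and cox7a1 had 0.81, 4.78, -1.10, 0.18 and 2.07. Both were highest with the list in replicate 3 and lowest with it in replicate 4, but not low in replicate 6. The part of liver RNA in these values was not tested.

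ndufa4b went with blood genes. The list of blood genes (6 of 6 measured) had medians of 1.06, -0.19, 2.20, 0.68 and 1.40 at 3 ppb in replicates 2 to 6, against -0.57, 0.06, -0.33, 0.13 and 0.14 at 0 ppb, and lay between -0.84 and 1.17 at 30 ppb. With ndufa4b it gave r = 0.81 over the 15 arrays (permutation p = 0.00013, adjusted p = 0.0276) and rho = 0.78 (permutation p = 0.00096, adjusted p = 0.178), r = 0.73 without the 2 farthest arrays and 0.88 within replicates. At 0.3 ppb, outside these coefficients, the blood list lay at 2.60, 3.85, -0.84, 5.00 and 4.72 in replicates 2 to 6, and ndufa4b at -6.66, 4.88, -6.27, 5.24 and 5.25. The array of replicate 2 was thus high in blood genes and the lowest of the 5 in ndufa4b. Past the correction there was 1 other relation, that of ndufa12, named after its values were seen, with a list of heart genes. It had r = 0.94 (permutation p = 5e-05, adjusted p = 0.0212) and rho = 0.80 (permutation p = 0.00055, adjusted p = 0.178), but 0.51 within replicates. The heart list was higher in replicates 5 and 6 of every treatment, which were scanned in the same session. This step was not particular to heart genes. In untreated females the brain list rose from between -0.36 and 0.00 in replicates 2 to 4 to 1.13 and 0.88 in these replicates. After 3 or 30 ppb it rose likewise. The dim ndufa12 had its highest untreated levels there too, -4.23 and -4.63. Whether ndufa12 follows heart genes or this shared step was not tested. The permutations took no account of the replicate, so the p-values of both relations past the correction can be too small. The part of blood or heart RNA was not tested.

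**Figure D5:**
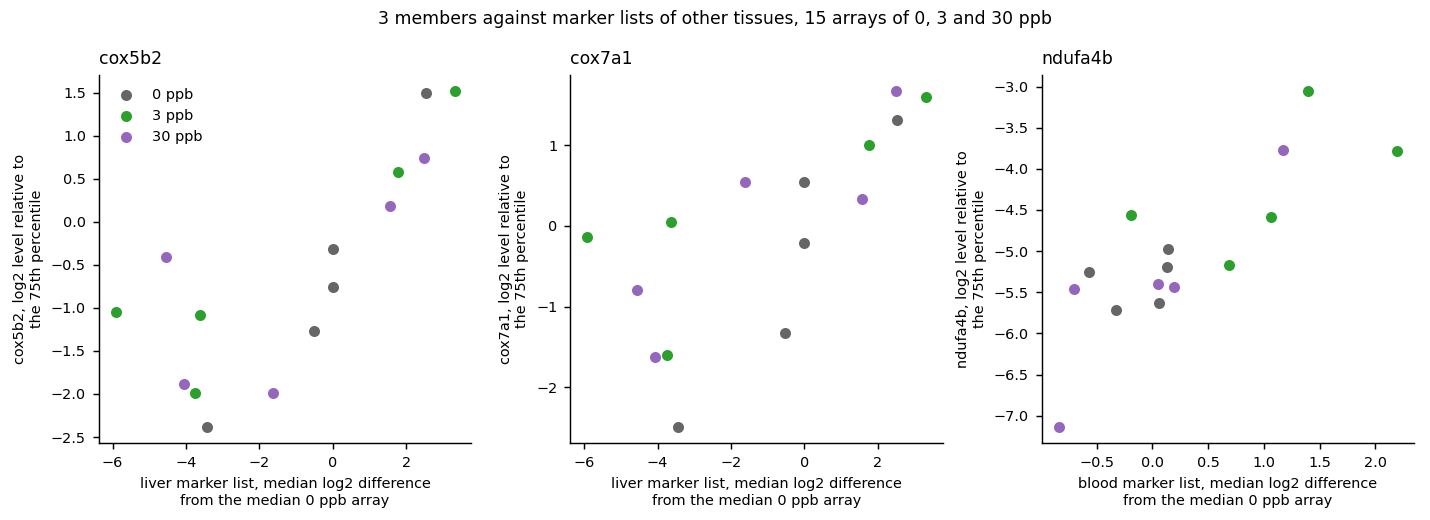
Log2 level of cox5b2, cox7a1 and ndufa4b (y axes) against the median of a list of liver or blood genes relative to the median 0 ppb array (x axes), 1 point per array for 5 arrays each of 0, 3 and 30 ppb. Levels rise with the lists across treatments (r = 0.79, 0.73 and 0.81).

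Genes that build or serve the chain were counted in the same 3 pairs, in which 19.6% of all targets were lower and 35.8% higher, and 58.9% of bright targets lower. No difference from the members was tested. Of 31 targets of assembly factors, 13 were lower and 3 higher past the threshold in all 3 pairs, with cox17, the copper chaperone of complex IV, at -3.07, -2.96 and -2.08. Of 11 targets for the synthesis of coenzyme Q, which carries electrons to complex III, 7 were lower and 1 higher. Of 8 carriers and porins 4 were higher and none lower. The citric acid cycle (15 targets) had 3 higher and 2 lower, other parts of the chain (8 targets, among them cyc1 and a gene of cytochrome c) 1 higher and 2 lower, and regulators of mitochondrial genes (8 targets) 1 higher and 2 lower. limma called 0 of these 81 targets at 0.3, 3 or 30 ppb. At 3 and 30 ppb the medians of the 6 lists were between -0.05 and 0.22 and between 0.11 and 0.18. The chain genes encoded in mitochondrial DNA were not analysed here.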

How the data were processed

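Total RNA was labelled with 1 dye and hybridized to custom arrays, 4 to a slide. The authors extracted the images with Agilent Feature Extraction 11.5, and the deposited values are the background-corrected intensity of each spot, not normalized between arrays, with quality marks. The authors' later GeneSpring values were not used here. From the deposited intensity the log2 value minus the array's 75th percentile was computed. Spots marked as outliers were dropped, 108937 of 128291 probes that cleared background on 5 or more of the 20 arrays of replicates 2 to 6 were kept, and spots and then probes were averaged. A probe missing on an array took its own mean plus the deviation of the target's other probes. No spot was saturated. limma 3.58.1 (R 4.3.3, data.table version 1.17.8) fitted treatment with the replicate number as a block, for 0, 3 and 30 ppb and for 0.3 and 0 ppb apart, with Benjamini-Hochberg adjustment over all targets. ndufa6 has no value on the 30 ppb array of replicate 2, which its fit drops. Permutation tests were two-sided with 100000 resamples. Python 3.11.15 with numpy 2.4.6, pandas 2.3.3 and matplotlib 3.10.9 made the tables and figures. The fit was tested on simulated data.

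By the methods, biological replicates began on separate days, and the 4 arrays of a replicate also share a slide. Replicates 1 and 2, 3 and 4, and 5 and 6 also shared scan sessions. At 0, 3 and 30 ppb, deviations from the group means correlated by over 0.1 in 14 of 15 pairs of the same number. For different numbers it was 23 of 60. The medians were 0.42 and -0.32, but deviations sum to 0 within a group, which by itself pushes the second median down. Each treatment kept 1 place on every slide, so place and treatment cannot be told apart. Genes named are core subunits, copies and isoforms, in each complex the 2 highest and 2 lowest on the 0.3 ppb arrays of replicates 3, 5 and 6, and up to 4 members with the largest mean difference each way among those of 1 direction in all pairs at 3 and at 30 ppb. The values of 1 member that this rule names are counted but not reported here singly. The members and lists were chosen with earlier results of these data known. Array names were matched to symbols through RefSeq, which named 13710 targets. The build of the array is not given in the sources used here, so no coordinates are printed. Alternatives are given in the closing section.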

Additional observations from a re-analysis of the deposited data

Results flagged for a closer look

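Among 196 groups of 5 arrays (49 named targets in 4 treatments), 11 had a sample set apart from the other 4 by more than Dixon's limit for 5 samples, and chance gives about 1 in 20. At 0 ppb, 4 of the 5 were on the array of replicate 6 and were its lowest values, with levels of 4.87 for atp5mc3a (next 4.99), 4.91 for cox7a2l (next 5.21), 1.07 for ndufs7 (next 1.47) and 2.59 for sdhaf3 (next 3.10). Differences of replicate 6 from 0 ppb rest on these levels. The fifth was cox4i1 at 4.34 in replicate 2 (next 4.00), its highest. At 0.3 ppb cox6a2 stood apart at 3.84 in replicate 3 (next 1.13), where the liver list was also highest. At 3 ppb the array of replicate 6, which has the poor grid, held atp5pf at -5.13 (next -2.49) and ndufab1a at 3.803 (next 3.13), and sdhdb was low at 2.16 in replicate 5 (next 2.50). At 30 ppb replicate 4 held ndufs8b at -0.25 (next -0.71) and uqcrc2a at 3.70 (next 2.92).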

How the results depend on the processing

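At 3 and 30 ppb no setting called a member. The count of all targets called, 0, became 3 (3 ppb) and 6 (30 ppb) when a probe had to clear background on every one of the 20 arrays, 3 (30 ppb) with normexp, 1 without the 30 ppb array of replicate 2 (30 ppb, and 30 against 3 ppb), and 90 and 44 by the methods' ANOVA and Tukey's test, unadjusted. At 0.3 ppb it became 1 without the replicate block, 1 with the adjusted ANOVA, 10465 (members 9) with the unadjusted ANOVA, and 20111 (members 11) with all 4 treatments in one fit, which takes the spread from the other treatments too. Leaving out a replicate gave 0 to 2 targets at 3 ppb, 0 to 3 at 30 ppb and 0 to 1 between these doses. The replicate block changed no other call. The median member difference at 0.3 ppb was 0.22, 0.47 after quantile normalization and -0.27 after centring on the median target. In the 3 pairs of replicates 3, 5 and 6, members higher and lower numbered 28 and 2 after quantile normalization (27.4% and 29.0% of all targets), 9 and 24 after centring (23.2% and 33.2%) and 10 and 2 of 78 with the strict filter (20.9% and 42.2%). The difference of ndufa2 at 30 ppb turned to -0.0088 with replicate 1 kept, and the smallest difference of cox4i1 at 0.3 ppb to -0.12 after centring. The cause of these changes was not tested. Leaving out the arrays with poor grids was chosen after seeing the data. The number of 5 arrays per treatment limits the precision, as do dim targets such as ndufa1, ndufa4b and sdhda, which cleared background on 4 of 5 arrays at 3 ppb.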
